A study of Mus musculus with 54 samples.

Results

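The 18 cortex libraries of this mouse series were ranked by Dcn, the gene of decorin, as raw CPM (its counts scaled to the gene counts of the library, spike-ins left out), and the 6 highest and the 6 lowest libraries were set against each other with both genotypes pooled. These 12 of 18 cortex libraries, from a series of 54 libraries in all, were chosen by the level of Dcn, so differences in gene levels between them in cortex are given as a description with no test. Each library was bulk RNA from the cortex of 1 mouse, and the striatum and the cerebellum of the same mice were sequenced as well. All mice were 8 weeks old and on a C57BL/6 background. Of the 18 mice, 10 were Mbd5+/GT, that is, they carried 1 copy of Mbd5 with a gene trap in its second intron, a hypomorphic allele present in every cell, and 8 were WT. Litter 1 held 6 females (3 Mbd5+/GT and 3 WT), litter 2 held 5 males (4 Mbd5+/GT and 1 WT), and litter 3 held 4 females and 3 males (3 Mbd5+/GT and 4 WT). Mbd5 itself lay between 39.5 and 51.3 CPM in the Mbd5+/GT cortex libraries (median 44.5) and between 46.9 and 74.0 CPM in the WT libraries (median 66.0), with overlap through 1 WT library, M757.

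Decorin is a small leucine-rich proteoglycan, a secreted core protein with a sugar chain that binds collagen fibrils and growth factors. In the brain it is made chiefly by fibroblasts of the meninges and around larger vessels, so Dcn is often read as a sign of how much of these membranes a piece of tissue carries. Several members of the family lie side by side in the genome, Dcn with Lum, Kera and Epyc in one cluster and Ecm2, Aspn, Omd and Ogn in another. Whether the meninges were peeled from the cortex is not given in the sources used here. In bulk RNA, fewer cells of a type and less RNA per cell cannot be told apart.

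The ranking ran from 21.3 CPM in the WT mouse M757 to 7.01 CPM in the WT mouse M751. The high group consisted of M757 (21.3), the Mbd5+/GT mouse M755 (18.3), the WT mouse M761 (17.9), the Mbd5+/GT mouse M758 (17.6) and the WT mice M754 (16.4) and M762 (16.2). The low group consisted of the Mbd5+/GT mice M767 (12.5), M753 (11.6), M764 (11.6), M768 (9.43) and M766 (8.44) and the WT mouse M751 (7.01). The last library inside the high group had 16.2 CPM against 15.4 CPM for the first one outside (M760), and the first library inside the low group had 12.5 CPM against 12.7 CPM for the last one outside (M752). Dcn was covered by 453 to 597 counts in the high libraries and by 236 to 414 counts in the low libraries.

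**Figure D1:**
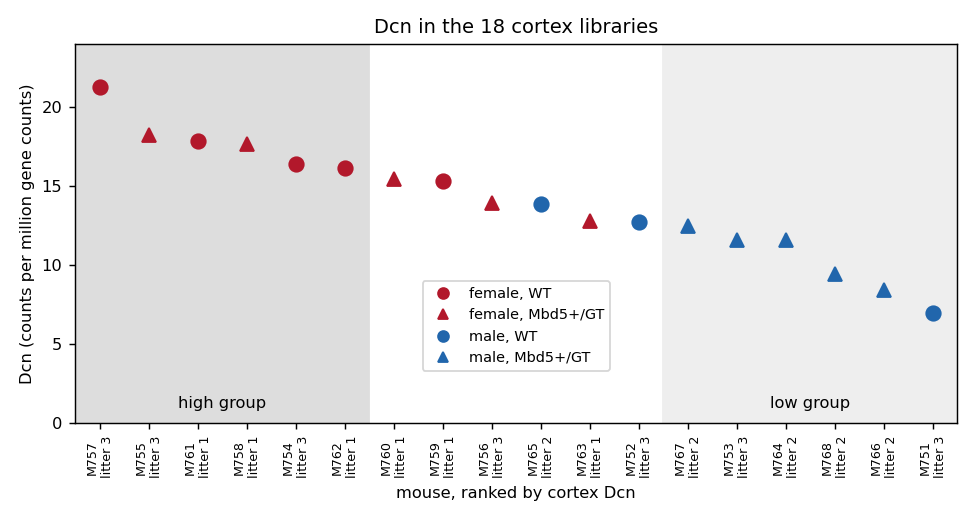
Dcn as raw CPM (y axis) in the 18 cortex libraries ordered by rank (x axis, mouse and litter), coloured by sex and shaped by genotype. The high group on the left holds 6 females and the low group on the right 6 males, with 21.3 CPM at the top and 7.01 CPM at the bottom.

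The groups differed completely in sex. All 6 high libraries were from females and all 6 low libraries from males, which had an exact permutation p of 0.00216 over the 924 ways to divide 12 libraries (adjusted p = 0.00649 over 3 labels, the smallest these splits allow). The high group held 3 mice of litter 1 and 3 of litter 3, and the low group held 4 mice of litter 2 and 2 of litter 3 (exact permutation p = 0.0368, adjusted p = 0.0552). Genotype was spread as 2 Mbd5+/GT and 4 WT mice in the high group and 5 Mbd5+/GT mice and 1 WT mouse in the low group (exact permutation p = 0.242, adjusted p = 0.242). Litters 1 and 2 each held 1 sex, so sex and litter cannot be told apart there. In each region the labelled plate positions run through all 8 males before all 10 females, litter 3 included, so sex and plate position cannot be told apart in any of these mice. Litter 3 held both sexes, and its 4 females had cortex Dcn of 13.9 to 21.3 CPM against 7.01 to 12.7 CPM in its 3 males, without overlap. Of the 6 libraries in the middle of the ranking, 4 were from females and 2 from males, and their order mixed the sexes.

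The levels of Dcn in cortex overlapped between the genotypes. Its median was 12.7 CPM in the 10 Mbd5+/GT libraries (8.44 to 18.3) and 15.7 CPM in the 8 WT libraries (7.01 to 21.3), and these ranges overlapped. The difference of mean log2 CPM was −0.17, Mbd5+/GT minus WT (2-sided exact permutation p = 0.389 over 43758 splits). Within litters the same difference had an exact permutation p of 0.400, and within sexes of 0.260. Without litter 2 the difference was 0.02, of the other sign (exact permutation p = 0.945).

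Before other genes are described, the state of the libraries is given in brief. The cortex libraries held 25295973 to 49027399 gene counts, with M766 of the low group the deepest, and mitochondrial genes took 6.85% to 8.25% of the high and 5.31% to 8.43% of the low libraries. In striatum, spike-ins took 0.092% to 0.728% of the libraries of females and 0.214% to 0.713% of those of males. Most males lay above most females in this share, and its part in the striatum results was not tested. Of the striatum libraries, 5 had summed levels of striatal projection neuron genes under 0.5 of the median of the 18 libraries, which was 3653 raw CPM. They were all from females, and 3 of them, M755 (1809), M761 (777) and M754 (296), belonged to high-Dcn mice. Of the cerebellum libraries, M755 with 43.5 CPM and M754 with 325 CPM of Zic1, a transcription factor of cerebellar granule neurons, stood apart from the median of 845 CPM, and both belonged to high-Dcn mice. For the comparisons of Dcn groups, the counts of genes called and the Dcn differences are therefore also given without these libraries. Most other values on those regions are given only with them. Xist and Y-linked genes were as labelled in all libraries.

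The part of the proteoglycan family that followed Dcn lay in its 2 genomic clusters. The split by position was not among the fixed lists and was made on the libraries ranked by Dcn, so it is a description. On chromosome 10 (GRCm38), Dcn (97479609-97518143, + strand) is followed by Lum (97565128-97572703, + strand), and on chromosome 13 Ecm2 (49504810-49532789), Aspn (49544443-49567565), Omd (49582462-49592822) and Ogn (49608046-49624501) follow each other on the + strand. The last 4 genes lie within the span of Cenpp, a centromere protein gene on the − strand (49464023-49652785), and since the strand setting of the counting is not given in the sources used here, reads shared with it are uncertain. The RefSeq promoters of these 4 neighbours (GRCm38.p6, 250 bases before to 50 after the start) are shown because the genes sit together and were higher together. Capitals mark TATAAA or its reverse complement TTTATA.
Ecm2, chr13:49504560-49504859, + strand: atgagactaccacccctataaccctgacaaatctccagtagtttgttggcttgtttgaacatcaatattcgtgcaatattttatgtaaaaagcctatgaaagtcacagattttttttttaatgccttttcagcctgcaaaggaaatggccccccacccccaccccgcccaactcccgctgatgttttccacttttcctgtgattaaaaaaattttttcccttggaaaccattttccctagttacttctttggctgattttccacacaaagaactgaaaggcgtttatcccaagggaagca
Aspn, chr13:49544193-49544492, + strand: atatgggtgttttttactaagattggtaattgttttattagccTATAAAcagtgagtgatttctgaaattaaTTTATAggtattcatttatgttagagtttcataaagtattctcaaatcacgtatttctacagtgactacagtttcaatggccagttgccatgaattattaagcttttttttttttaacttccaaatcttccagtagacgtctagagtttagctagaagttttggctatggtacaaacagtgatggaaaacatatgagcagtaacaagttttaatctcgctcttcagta
Omd, chr13:49582212-49582511, + strand: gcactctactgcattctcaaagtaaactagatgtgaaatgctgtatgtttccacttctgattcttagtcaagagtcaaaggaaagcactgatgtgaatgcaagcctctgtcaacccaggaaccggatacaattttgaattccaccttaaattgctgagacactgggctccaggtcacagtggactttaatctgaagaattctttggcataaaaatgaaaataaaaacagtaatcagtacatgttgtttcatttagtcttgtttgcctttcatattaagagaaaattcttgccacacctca
Ogn, chr13:49607765-49608064, + strand: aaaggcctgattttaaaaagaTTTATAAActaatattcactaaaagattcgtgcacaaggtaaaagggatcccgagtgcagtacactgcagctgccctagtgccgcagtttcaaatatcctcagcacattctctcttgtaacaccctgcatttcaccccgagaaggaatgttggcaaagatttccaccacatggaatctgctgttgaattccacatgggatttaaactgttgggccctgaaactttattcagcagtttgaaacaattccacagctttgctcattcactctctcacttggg
Aspn held this motif at positions 44 and 73 of the window and Ogn at positions 22 and 24, where both letterings overlap, and the windows of Ecm2 and Omd did not hold these letters. Of 32851 promoters of the same length, 13.6% held it on either strand. The forkhead motif TGTTTAC (3.65% of these promoters, both strands) and the AP-1 motif TGACTCA (5.2%, both strands) were in none of the 4 windows. The promoters are a description of what the genes do and do not share. They do not show what sets the levels.

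Lum, the gene of lumican, a proteoglycan of collagen-rich tissue, lay between 3.28 and 6.05 TMM-normalized CPM in the high libraries (median 4.42) and between 1.70 and 3.38 CPM in the low libraries (median 2.27). The groups overlapped because M762 of the high group, at 3.28 CPM, lay below M767 of the low group, at 3.38 CPM. The high minus low difference of mean log2 CPM was 0.97 for Lum, against 0.83 for Dcn on the same scale and 0.01 as the median of all 18661 genes.

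Ogn, the gene of osteoglycin, lay between 14.6 and 19.0 CPM in the high and between 5.85 and 13.9 CPM in the low libraries (medians 15.2 and 10.1), without overlap and with a log2 difference of 0.73. Omd, the gene of osteomodulin, lay between 1.71 and 3.08 CPM and between 0.91 and 1.86 CPM (medians 2.36 and 1.18), a log2 difference of 0.88. Aspn, the gene of asporin, lay between 2.43 and 3.59 CPM and between 1.55 and 2.74 CPM (medians 2.86 and 1.74), a log2 difference of 0.64. In both genes the groups overlapped, and M767, at 1.86 CPM of Omd and 2.74 CPM of Aspn, was the one low library that reached into the high group. Ecm2, an extracellular matrix gene at the end of the cluster, had 6.38 to 9.59 CPM against 4.25 to 7.98 CPM (medians 7.17 and 5.11), a log2 difference of 0.47. Its highest low library was again M767, with 5.88 CPM in the next one, M764. Thus in Lum, Omd, Aspn and Ecm2 alike the overlap between the groups came from M767, which had the highest Dcn of the low group. Cenpp, whose span holds these genes, had 0.51 to 0.94 CPM in the high and 0.28 to 1.04 CPM in the low libraries, with overlap and a log2 difference of 0.39. Summed over both clusters without Dcn, these 5 genes gave 30.0 to 38.4 CPM in the high and 15.9 to 29.9 CPM in the low libraries.

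**Figure D2:**
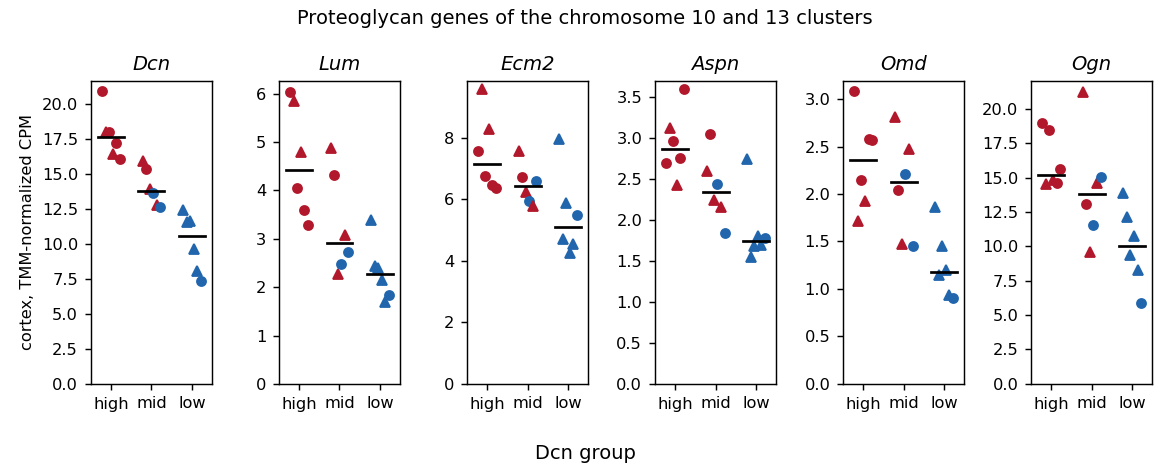
TMM-normalized CPM (y axes from 0, one per gene) of 6 proteoglycan genes in the high, middle and low Dcn groups of cortex libraries, with red for females, blue for males, circles for WT, triangles for Mbd5+/GT and a line at each median. Dcn and Ogn do not overlap between high and low, and the single high blue triangle in the low Aspn group is M767 at 2.74 CPM.

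The proteoglycans elsewhere in the genome did not share this. Of the 13 family members measured, 10 were above 0, with a median of 0.26. The median log2 difference of the 7 measured members outside the clusters was 0.01, with 4 of 7 above 0, beside 0.73 for the 5 cluster members other than Dcn. Prelp, whose product anchors basement membranes to connective tissue, had 12.8 to 17.7 CPM in the high and 10.2 to 18.7 CPM in the low libraries (log2 difference 0.01). Bgn, the gene of biglycan, the closest relative of decorin, had 8.41 to 23.2 CPM and 9.20 to 24.4 CPM (log2 difference −0.03). Fmod, the gene of fibromodulin, had 9.61 to 29.3 CPM and 9.77 to 22.6 CPM (log2 difference 0.13). Kera, Epyc, Podnl1 and Chad did not pass the filter on low counts, with means of 0.08 to 1.92 counts over the 12 libraries.

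Over all 18661 genes, 22 were higher without overlap in the high group (0.118%) and 8 were lower without overlap (0.0429%). For a gene unrelated to the groups, 1 of the 924 ways to divide 12 libraries gives no overlap in a given direction. The share of higher genes is near that, so a gene without overlap need not follow the groups. Since the groups are females and males, the extremes were the X-inactivation RNA Xist, at 515 to 1182 CPM against 0.47 to 1.12 CPM, and 6 Y-linked genes among the 8 lower ones, such as Ddx3y, an RNA helicase (28.3 to 71.8 CPM in the low libraries). The other lower genes were Taf8, a subunit of the general transcription factor TFIID, with a log2 difference of −0.17, and Wdr5, a subunit of histone methyltransferase complexes, with −0.14. Among the higher genes, Fgl2, a fibrinogen-like protein of immune cells, had 2.94 to 5.89 CPM against 1.38 to 2.73 CPM (log2 difference 1.06). Bmp5, a bone morphogenetic protein, had 2.42 to 4.23 CPM against 1.44 to 2.36 CPM (0.59). Cav1, the caveolin of endothelial and fibroblast membranes, had 17.4 to 23.5 CPM against 13.4 to 17.1 CPM (0.39), and Abcg2, an efflux transporter of the blood-brain barrier, 28.0 to 31.6 CPM against 20.2 to 27.7 CPM (0.29). The neuropeptide Y receptor gene Npy1r had 31.1 to 33.4 CPM against 20.6 to 30.3 CPM (0.34), and the glycogen branching enzyme gene Gbe1 was the smallest of these differences, at 0.18. With 4 libraries a group, 365 genes were higher and 351 lower without overlap, and with 9 a group 3 and 1, so the size of the groups sets these counts.

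Other genes of meningeal fibroblasts were compared between the same libraries, since Dcn is only one of their markers, and they did not all go with it. Collagens, the fibrils that decorin binds, had a median log2 difference of −0.04 with 9 of 21 genes above 0. None was without overlap, beside 0.118% of all genes that were higher and 0.0429% that were lower without overlap. Col1a1 had the largest difference, 0.68, but 6.49 to 32.1 CPM in the high and 4.82 to 12.5 CPM in the low libraries overlapped, and it was M754 (32.1) and M757 (17.4) that were high while the other 4 high libraries were at or below 8.56 CPM. Col1a2 had 13.2 to 48.5 CPM against 11.8 to 30.4 CPM (0.37). The collagens Col6a1 and Col6a2 were lower in the high group, with log2 differences of −0.37 and −0.41. Genes that process collagen or form elastic fibres had a median of 0.04 (14 of 25 above 0), with Postn, a matricellular protein gene, at 0.84 and Fbln2, a fibulin gene, at −0.44.

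Genes that mark meningeal fibroblasts by other functions were slightly higher. Nearly all of them overlapped, as did nearly all genes, of which 0.118% were higher without overlap. The meningeal transporters had a median log2 difference of 0.29 (9 of 11 above 0, none without overlap), led by Slc22a2, an organic cation transporter, at 0.61 with 0.51 to 1.80 CPM against 0.21 to 2.55 CPM. The meningeal transcription factors had a median of 0.26 (15 of 16 above 0, none without overlap), with Zic1 at 0.54 and Foxc1, a forkhead factor of the developing meninges, at 0.09. Foxc1 had 3.23 to 7.41 CPM in the high and 3.26 to 5.65 CPM in the low libraries. The retinoid and growth factor signals had a median of 0.17 (16 of 25 above 0), with Bmp5 the one member without overlap. Igf2, a growth factor of meninges and choroid plexus, had 60.9 to 102 CPM against 51.9 to 91.6 CPM, a log2 difference of 0.10. By layer, the pial list had a median of 0.07 (6 of 6 above 0), the arachnoid and barrier list of 0.21 (9 of 12) and the dural list of −0.07 (2 of 9). The 6 libraries highest in Dcn included 4 of the 6 highest in Lum but 2 of the 6 highest in Col1a2, in Igf2 or in Foxc1. The 6 lowest in Dcn included 5 of the 6 lowest in Lum and 3 of the 6 lowest in each of Col1a2, Igf2 and Foxc1. For Slc6a13, a transporter of meningeal fibroblasts, 3 of the highest and 3 of the lowest were shared. For Ttr, a choroid plexus gene, 3 of the highest and 2 of the lowest were shared. With 6 of 18 libraries on each side some are shared by chance, and these counts were not tested.

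The listed markers of other cell types all overlapped between the groups. So did nearly all genes, with 0.118% of 18661 higher without overlap and 0.0429% lower. Cav1 and Abcg2 above were not on these lists. The choroid plexus list had 14 of 14 genes above 0 with a median of 0.42, and its summed level was 272 to 2192 CPM in the high and 199 to 1515 CPM in the low libraries. Ttr, the transthyretin gene of choroid plexus, had 6.44 to 1160 CPM against 1.84 to 873 CPM. Striatal projection neuron genes were above 0 in 9 of 9 cases (median 0.45, summed 175 to 1919 CPM against 255 to 1362 CPM). Border macrophage genes were above 0 in 10 of 11 cases (median 0.25, summed 34.6 to 57.2 CPM against 34.3 to 57.1 CPM). Erythrocyte genes were below 0 in 5 of 5 cases (median −0.76, summed 50.7 to 134 CPM against 81.5 to 255 CPM), and immediate early genes in 10 of 10 (median −0.30, summed 480 to 955 CPM against 725 to 1328 CPM). Endothelial (−0.06), mural (−0.12), microglia (−0.08), motile cilia (−0.15), cortical neuron (−0.06), astrocyte (0.00) and oligodendrocyte (0.02) medians stayed closer to 0. Single vascular genes differed more, such as Slco1a4 (0.45) and Rgs5 (0.41), while 5 of 13 endothelial and 4 of 12 mural genes were above 0. No gene of these lists that passed the filter was at 0 in all 12 libraries, and the dural mast cell genes did not pass it. The summed levels of all these lists overlapped between the groups, and their part in the result was not tested.

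**Figure D3:**
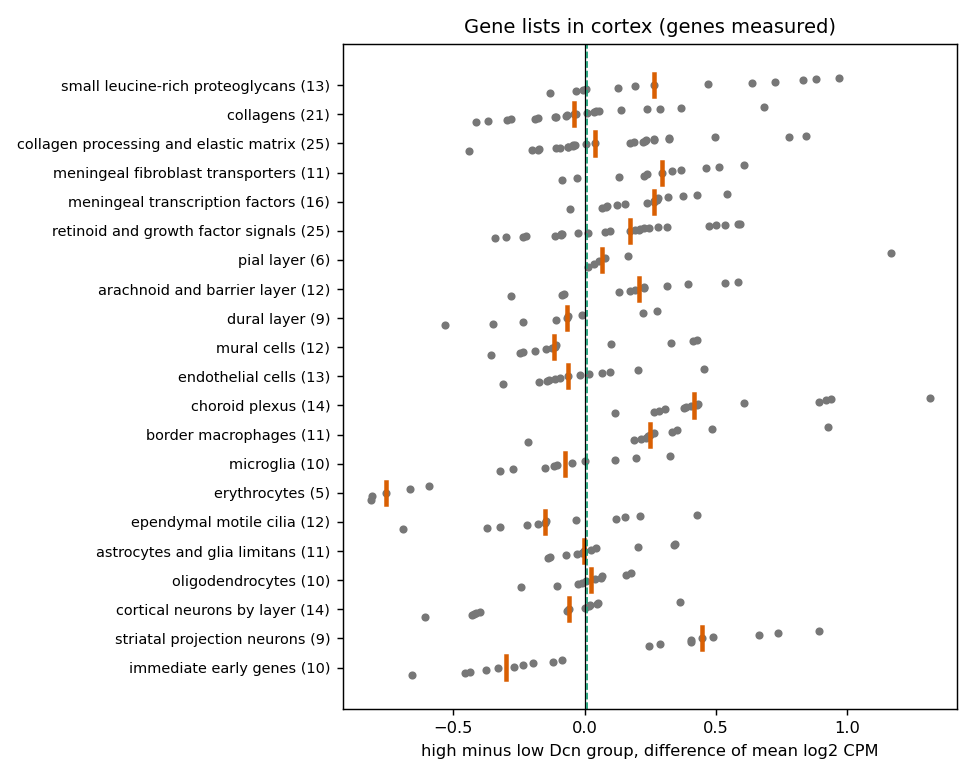
High minus low difference of mean log2 CPM in cortex (x axis) for each gene measured (grey points) of 21 lists (y axis, number of genes in brackets), with orange bars at list medians and a dashed green line at the median of all genes, 0.01. The proteoglycan points to the right are the 6 cluster genes at 0.47 to 0.97, the other 7 lie between −0.13 and 0.26, and the erythrocyte points all lie below 0.

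The 15 genes most like Dcn across the 18 cortex libraries, by Pearson's r of log2 CPM among genes with a mean of at least 50 counts, began with Lum (r = 0.88), Omd (0.85) and Ogn (0.84). They went on to Cpq, a secreted carboxypeptidase gene (0.84), Fkbp7, a chaperone gene of the endoplasmic reticulum (0.82), Slc16a12, a solute carrier gene (0.81), and Colec12, a scavenger receptor gene (0.80), and ended with Aspn (0.77). Xist was among them with 0.79, since the ranking runs from females to males. These libraries include the 12 that were chosen by Dcn, and they differ in sex, litter and depth, so r was also taken within each sex. Within the 8 males r was 0.84 for Lum, 0.89 for Omd, 0.85 for Ogn and 0.84 for Colec12. Within the 10 females it was 0.75 for Lum, 0.33 for Omd, 0.55 for Ogn and 0.16 for Colec12. The 5 cluster genes other than Dcn had a median r of 0.55 within females and 0.84 within males, beside −0.04 and 0.11 for the collagens and 0.00 and 0.01 for all genes. For Xist it was 0.14 within females.

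**Figure D4:**
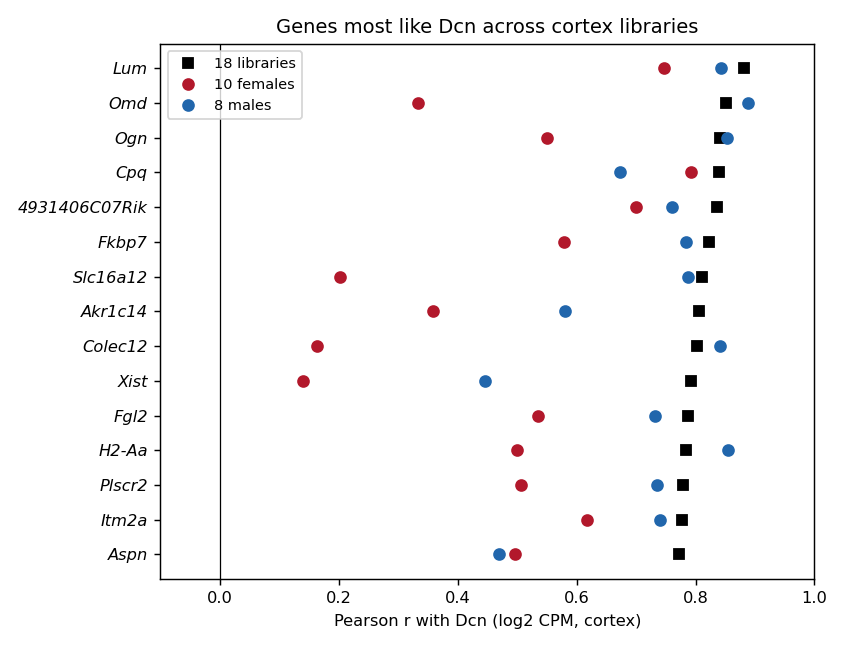
Pearson's r with Dcn over cortex libraries (x axis, log2 CPM) for the 15 genes most like Dcn (y axis), over all 18 libraries (black squares), 10 females (red) and 8 males (blue). Lum keeps a high r in both sexes, 0.75 and 0.84, while Colec12 has 0.16 in females and 0.84 in males.

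The striatum of the same mice was not used in the choice and could be tested. Striatal Dcn was 7.97 to 14.3 raw CPM in the 6 mice with high cortex Dcn (median 10.3) and 1.95 to 7.08 CPM in the 6 mice with low cortex Dcn (median 5.94), without overlap. In the edgeR fit with genotype as a term its log2 difference was 0.90 ± 0.30 (SE, n = 6 and 6) with an adjusted p of 0.222 (unadjusted 0.0103, as a model fit over all genes). Leaving out 1 mouse in turn gave 0.58 to 1.08, the lowest without M758, where the unadjusted p of the edgeR fit was 0.111. Lum had 1.39 to 3.96 TMM-normalized CPM against 0.37 to 2.05 CPM, with a log2 difference of 1.03 ± 0.42 and an adjusted p of 0.309. Ogn had 2.54 to 10.5 CPM against 1.02 to 5.22 CPM, with 0.99 ± 0.48 and an adjusted p of 0.377. Omd (0.32 ± 0.63) and Aspn (0.15 ± 0.38) differed less than their errors. Of the 6 cluster genes none passed the adjusted threshold and 2 were higher at an unadjusted p under 0.05, beside 8.89% of all genes that were higher and 5.12% that were lower.

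Over all 18546 striatum genes, 62 were higher (0.334%) and 10 lower (0.0539%) in the high-Dcn mice at an adjusted p under 0.05, and the sex-linked genes Xist, Kdm5d, Eif2s3y, Ddx3y and Uty led them. Of the 14 meningeal transcription factors tested, 3 rose, the Zic genes Zic1, Zic2 and Zic4, which neurons of several brain regions also express. Zic1 had 36.4 to 156 CPM in the high and 9.32 to 19.8 CPM in the low mice, a log2 difference of 2.79 ± 0.38 (adjusted p = 0.0131). Camk2d, a calcium-dependent kinase gene, rose by 1.45 ± 0.15 on the log2 scale (adjusted p = 0.00109). Of the 25 signal genes 1 fell, Rbp4, the retinol-binding protein gene (−0.93 ± 0.17, adjusted p = 0.0437). None of the 21 collagens passed, with 7 higher at an unadjusted p under 0.05. Beside this, the summed level of striatal projection neuron genes was 280 to 3800 CPM in the high and 2101 to 7839 CPM in the low mice (median difference −0.95, 0 of 9 passing) and that of oligodendrocyte genes 7359 to 15300 CPM against 10750 to 18710 CPM (−0.48, 0 of 10 passing). The part of these in the result was not tested. Without the 3 high libraries low in striatal genes, 331 genes were higher and 31 lower, and Dcn differed by 1.06 ± 0.37 (adjusted p = 0.147). Without M758 or without M751, 3 were higher and 5 lower, and with litter as a further term 1 and 6.

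In cerebellum the picture was another. Cerebellar Dcn was 17.6 to 34.3 raw CPM in the high and 23.1 to 31.3 CPM in the low mice (medians 22.4 and 26.4), with overlap and a log2 difference of −0.29 ± 0.18 (SE, n = 6 and 6, adjusted p = 0.343). Without M751 it was −0.53 (unadjusted p = 0.0199, adjusted p = 0.153, edgeR) and without M758 −0.12 (adjusted p = 0.702). Of 18160 genes, 2 were higher (0.011%), Xist and the homeobox gene Hlx, and 5 lower (0.0275%), all Y-linked. At an unadjusted p under 0.05, 14.7% were higher and 6.68% lower. Of the cluster genes none was higher and 1, Omd, was lower at that threshold (−1.02 ± 0.43, adjusted p = 0.213). The 21 collagens had a median of 0.44, beside 0.40 in striatum, and 7 of them were higher at that threshold. Oligodendrocyte genes were higher in 10 of 10 cases at that threshold, with a median of 1.29 and summed levels of 5892 to 33780 CPM against 5204 to 7169 CPM, and microglia genes in 9 of 10. Without M754 and M755, low in Zic1, 1 gene was higher and 5 lower at the adjusted threshold, and 345 and 212 at the unadjusted one, against 2661 and 1213 with them. Dcn differed by −0.25 ± 0.23 in the fit without them (adjusted p = 0.999, edgeR). Without M758, 1410 were higher and 135 lower. These fits differ only in the high-Dcn libraries they include.

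The difference between striatum and cerebellum was tested as an interaction. The high minus low difference of Dcn was larger in striatum than in cerebellum by 1.04 ± 0.31 on the log2 scale, with an adjusted p of 0.106, while a replicate block for the mouse gave 1.10 and an adjusted p of 0.287. Of 19320 genes, 53 had a larger difference in striatum (0.274%) and 77 a smaller one (0.399%), and 12 and 0 with the block. Zic4 passed both ways (2.96 ± 0.53, adjusted p = 0.0226, blocked 0.0246). In cerebellum Zic4 had 6.78 CPM in M755 and 30.1 CPM in M754, the libraries low in Zic1, and 54.1 to 67.8 CPM in the other 16. Without the libraries low in markers of their region its interaction was 2.51 ± 0.24 (adjusted p = 2.94e-05), and that of Dcn was 1.14 ± 0.38 (adjusted p = 0.389). None of the cluster proteoglycans passed.

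Sex, the label that coincided with the groups, was then compared over all 18 mice in the regions the ranking did not use, a comparison chosen after the data were seen. Striatal Dcn was 6.33 to 14.3 raw CPM in the 10 females (median 8.39) and 1.95 to 7.08 CPM in the 8 males (median 4.80). The ranges overlapped narrowly, and the difference of mean log2 CPM was 1.01 (2-sided exact permutation p = 0.000206 over 43758 splits, adjusted p = 0.000411 over 2 regions). In cerebellum, females had 17.6 to 34.3 CPM and males 16.8 to 31.3 CPM, a difference of −0.02 (exact permutation p = 0.903, adjusted p = 0.903). Within litter 3, striatal Dcn was 7.97 to 12.4 CPM in the 4 females and 1.95 to 6.70 CPM in the 3 males, a difference of 1.44 (exact permutation p = 0.0286, the smallest that 35 splits allow, adjusted p = 0.0571). Of these males, M751 and M752 had striatum libraries with rep in their labels, and only M751 was in a Dcn group. The comparison within litter 3 was not made without them. Without the 5 striatum libraries low in striatal genes, all from females, the difference was 1.00 (exact permutation p = 0.0155, 5 females and 8 males).

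**Figure D5:**
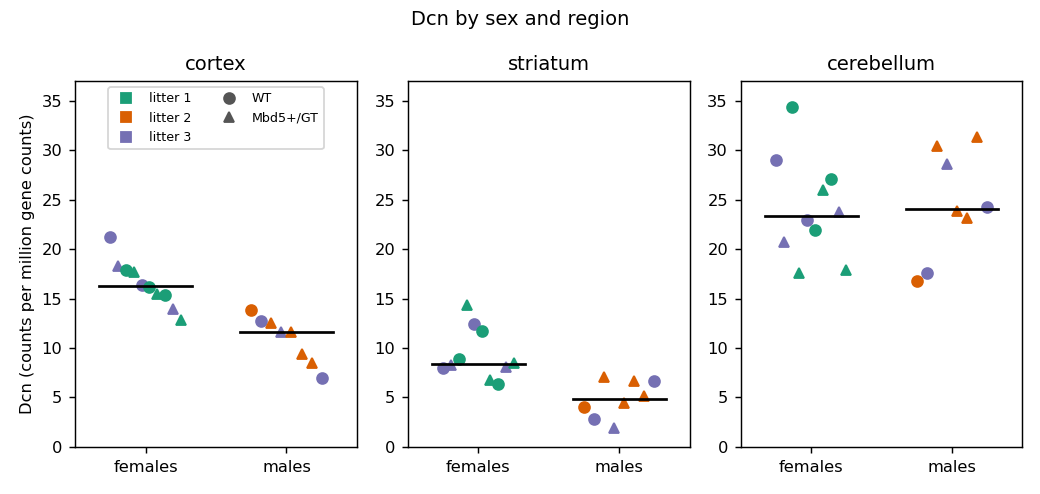
Dcn as raw CPM (y axis from 0) by sex (x axis) in cortex, striatum and cerebellum of 18 mice, coloured by litter and shaped by genotype, with lines at medians. Females lie mostly above males in striatum (medians 8.39 and 4.80 CPM) and overlap with them throughout in cerebellum, and the cortex panel shows the values the ranking used.

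In the edgeR fit of striatum by sex, 945 genes were higher in females (5.1%) and 694 lower (3.74%). Dcn was higher by 0.87 ± 0.22 (adjusted p = 0.0247) and Lum by 1.22 ± 0.37 (adjusted p = 0.0474), and Ogn missed the threshold at 1.15 ± 0.36 (adjusted p = 0.0524). Lum lay between 1.39 and 3.96 CPM in females and between 0.16 and 2.05 CPM in males. Of the 21 collagens 4 were higher, among them Col1a2 (1.23 ± 0.32, adjusted p = 0.0263) and Col6a3 (2.26 ± 0.51, adjusted p = 0.0171). Of the 14 meningeal transcription factors 5 were higher, Tbx18 and Twist1 beside the Zic genes, and of the 11 border macrophage genes 3, Mrc1, Lyve1 and F13a1. Other cell types moved in the same fit. Of the 10 oligodendrocyte genes 5 were lower and of the 5 erythrocyte genes 4, while 4 of 14 cortical neuron genes were higher. The 9 striatal projection neuron genes had a median of −1.05, with none past the adjusted threshold and 6 lower at an unadjusted p under 0.05. That unadjusted threshold was reached downward by 2508 and upward by 2765 of all 18546 genes. Without the 5 female libraries low in striatal genes, 250 genes were higher and 51 lower. Dcn then differed by 0.96 ± 0.29 (adjusted p = 0.0912), Lum by 1.47 ± 0.48 (adjusted p = 0.108) and Col1a2 by 0.54 ± 0.22 (adjusted p = 0.177). None of the collagens, cluster proteoglycans, border macrophage, oligodendrocyte, erythrocyte or cortical neuron genes passed in that fit, and 2 of the 14 meningeal transcription factors did, Zic1 and Zic2. In cerebellum, 1 gene was higher (0.00551%) and 5 lower (0.0275%), none of them a proteoglycan. Sex and litter cannot be told apart outside litter 3, and sex and plate position cannot be told apart in any litter.

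Over mice, cortex Dcn and striatum Dcn correlated with Pearson's r of 0.43 (permutation p = 0.0797, adjusted p = 0.239 over 3 pairs of regions) and Spearman's rho of 0.66 (permutation p = 0.00396, adjusted p = 0.0119), n = 18. Without the 2 mice farthest from the cortex median, r was 0.55. Without the 5 striatum libraries low in striatal genes, r was 0.34 (permutation p = 0.251, adjusted p = 0.753) and rho 0.53 (permutation p = 0.0675, adjusted p = 0.203), n = 13. Within the 10 females r was 0.18 and within the 8 males −0.48, and these values within the sexes were not tested. Cortex and cerebellum had r of −0.08 (permutation p = 0.767, adjusted p = 0.820) and rho of −0.13 (permutation p = 0.616, adjusted p = 0.616). Striatum and cerebellum had r of −0.06 (permutation p = 0.820, adjusted p = 0.820) and rho of −0.15 (permutation p = 0.559, adjusted p = 0.616). With cortex log2 Dcn entered as a number beside genotype in the striatum fit, 0 genes passed in edgeR, with or without sex. The slope of striatal Dcn was 0.66 ± 0.32 (SE) without sex as a term and −0.37 ± 0.42 with it.

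None of the proteoglycans passed the test for genotype in cortex. In the edgeR fit with 4 surrogate variables, Mbd5 fell by 0.49 on the log2 scale (SE 0.05, adjusted p = 0.00012) in Mbd5+/GT cortex, and Hs6st2, a heparan sulfate sulfotransferase gene, fell by 0.26 (adjusted p = 0.0350). These were the 2 genes lower (0.0107%), and 0 were higher (0%), while an unadjusted p under 0.05 was reached by 740 genes upward (3.97%) and 841 downward (4.51%), and DESeq2 called 33 higher and 30 lower. Dcn differed by −0.18 ± 0.14 (adjusted p = 0.782), Lum by −0.09 ± 0.18 (adjusted p = 0.940) and Ogn by −0.07 ± 0.19 (adjusted p = 0.964). Of the 6 cluster genes 1, Aspn, was lower at an unadjusted p under 0.05 (−0.24 ± 0.10, adjusted p = 0.516). The 4 surrogate variables together accounted for a share of 0.526 of the variance of log2 Dcn. Without surrogate variables, 0 genes passed in either direction in edgeR, whether with no covariate, with log2 Dcn or with sex.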

How the data were processed

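Frozen cortex, striatum and cerebellum of 18 mice were sequenced by the authors, 1 library per mouse and region. The deposited values are raw counts per gene. The submitters' processing notes name FastQC 0.10.1, STAR 2.4.2 and GRCm38, and the authors counted reads per Ensembl gene with STAR. The strand setting is not given in the sources used here. Of 47069 genes, 46574 were matched to GENCODE M21, and 92 spike-ins were left out. Libraries held 25295973 to 49027399 gene counts.

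The members, the 22 gene lists and the comparisons were chosen with earlier results of these data known. Cortex libraries were ranked by raw Dcn CPM. A gene was kept in a region where 8 or more libraries had over 4 counts of it, and log2 CPM (TMM, prior count 2) was described for cortex. Striatum and cerebellum of the 12 grouped mice, their interaction, and genotype in cortex with 4 surrogate variables (sva 3.50.0, rounded to 4 decimals) were fitted with edgeR 4.0.16 (quasi-likelihood, robust, Benjamini-Hochberg over all genes of a fit, threshold 0.05). SE is the log2 difference divided by the square root of F. DESeq2 1.42.0, other filters, scalings, group sizes and covariates, and leaving out libraries were alternatives. Exact permutation tests were 2-sided, and correlations had 100000 permutations (scipy). The edgeR fit was tested on simulated counts of the striatum design with 18546 genes, where 65% of 100 genes changed by 1 on the log2 scale and 94% of 100 changed by 2 were recovered, with 6 false calls. The changed genes had a mean of at least 50 counts, libraries were drawn independently, and none was made low in striatal genes. These figures therefore do not cover genes with fewer counts or the libraries that stood apart. Each library of a group is another mouse, and litters and plate positions differ within groups, so p-values measure the spread between such libraries. The regions of a mouse come from 1 animal, which pairs them, although deviations from group means correlated with a median of only −0.012 between striatum and cerebellum of the same mouse and −0.005 between different mice. Hence the interaction is given with and without the mouse as a block.

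The genes named are Dcn and Mbd5, up to 4 members of each list with the largest and 1 with the smallest cortex difference, up to 25 higher and 10 lower genes without overlap and at least 50 mean counts, the 15 most like Dcn, and up to 10 called in striatum or cerebellum. Other names, such as Bgn, Fmod, Rbp4, Zic2, Igf2, Foxc1, Cenpp, Ecm2 and the genes of the comparison by sex, were chosen after their values were seen.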

Additional observations from a re-analysis of the deposited data

Results flagged for a closer look

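Aspn in the low-Dcn cortex libraries was flagged because its highest library, M767, lay far from the other 5, with a gap to the nearest that was 0.731 of the group's range, above Dixon's critical value for 6 samples. Its level was 2.74 CPM against 1.55 to 1.81 CPM in the others. It was 1 of 50 groups looked at, and chance flags about 1 in 20. M767 was also the highest low library in Dcn, Lum, Ecm2, Omd and Ogn.

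The high minus low difference was larger in striatum than in cerebellum for 53 genes and smaller for 77, by the interaction term in edgeR. With the mouse as a replicate block these counts were 12 and 0, and without the libraries low in markers of their region 47 and 1. By p, the gene model Gm27199 came first and Calb2, the gene of a calcium-binding protein of neurons, next, with a difference of 4.27 ± 0.55 (adjusted p = 0.000749, blocked 0.00972).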

How the results depend on the processing

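The 12 cortex libraries stayed in their groups under every other ranking with 6 a group, and the log2 difference of Dcn stayed within its spread. Requiring 10 counts in every library left 0 genes lower without overlap. With 4 libraries a group the counts were 365 higher and 351 lower, and with 9 a group 3 and 1. In striatum (62 higher, 10 lower), DESeq2 gave 361 and 164, the fit without genotype 185 and 42, that with litter 1 and 6, 9 against 9 mice 1 and 28, cortex Dcn as a number 0 and 0 with or without sex (Dcn −0.369 with sex), females against males 945 and 694 (Dcn 0.874, adjusted p = 0.0247), and 250 and 51 without the libraries low in striatal genes, litter 3 alone 3 higher, the strict count filter 5 lower, leaving out the repeated library (M751) 3 and 5, and leaving out the libraries low in striatal genes 331 and 31. Leaving out 1 mouse in turn gave 3 to 142 higher and 5 to 21 lower. The count higher moved by over 1.5 times without M754 (142), M753 (41), M764 (39), M755 (37), M767 (34), M768 (26), M766 (23), M758 (3) or M751 (3). In cerebellum (2 and 5), DESeq2 gave 706 and 72 and the strict filter 1 and 0. The fits without genotype, with litter, by sex, by sex in litter 3 and without the libraries low in Zic1 each gave 1 higher, 9 against 9 mice gave 0 higher, and Dcn as a number 0 and 0 with or without sex. Leaving out 1 mouse gave 1 to 1410 higher and 5 to 135 lower, the extremes without M755 (1 higher) and M758 (1410 and 135). The cerebellar Dcn difference changed sign with 9 against 9 mice (0.0648) and between the sexes in litter 3 (0.0336) or without the libraries low in Zic1 (0.0242). The replicate block (mouse) took the interaction from 53 and 77 to 12 and 0, and leaving out the libraries low in regional markers to 1 smaller. For genotype (0 higher, 2 lower), DESeq2 gave 33 and 30, no filter 6 and 1, and the fits without surrogate variables, with Dcn or with sex 0 lower. Dcn by genotype was 0.0198 without litter 2. Within sexes the correlations that changed sign were 0.381 for cortex and cerebellum in females, and −0.480 for cortex and striatum and 0.238 for striatum and cerebellum in males. The alternatives by sex and by regional markers were chosen after seeing the data. The cause of these changes was not tested. What depth limits was not tested by thinning the counts.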
